A study of Mus musculus with 194 samples.

Results

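Transposon insertions were described at 4 mouse loci, those of the receptor tyrosine kinase gene Erbb4 and of the neuregulin genes Nrg1, Nrg2 and Nrg3. An insertion was counted when it fell in the RefSeq body of the gene or within 10 kb on either side, and levels were expressed as insertions per 1000000 insertions of a table (IPM). The 4 loci are 4 of 21631 protein-coding loci and held 63149 of the 21931733 insertions in the 47 tables. Of these, 7458 were at Erbb4, 23686 at Nrg1, 2992 at Nrg2 and 29013 at Nrg3. Erbb4 was chosen because earlier results from the Syn1Cre animals had singled it out, so its levels in every comparison with Syn1Cre or Syn1CreNeg animals are given as a description, with no test.

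Neuregulins are secreted or membrane-bound ligands with an EGF-like domain. They bind the receptors ERBB3 and ERBB4, which pair with each other or with ERBB2 and signal through PI3 kinase and MAP kinase. In the cerebral cortex, Erbb4 is known as a gene of GABAergic interneurons, where it acts in migration and in the formation of synapses, while neuregulins are made by several types of neuron.

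The study delivered calling card reagents to newborn mice by adeno-associated virus on postnatal day 0 to 1. Calling cards are piggyBac transposons that a hyperactive transposase inserts at TTAA sites, and the unfused transposase is known to favour the open, active chromatin of the cell. Most tables came from the RNA that an inserted self-reporting transposon makes, read from cortices divided into 10 parts. There were 46 mice in 11 groups and 1 pooled table from Neuro-2a (N2a) cells, a mouse neuroblastoma line.

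The C57bl6J group (2 mice) received viruses that do not need Cre. The other groups read from RNA are named by a Cre line. Syn1Cre (6 mice) and GFAPCre (6) are lines used to express Cre in neurons and in astrocytes, and Syn1CreNeg (6) and GFAPCreNeg (6) are named as their Cre-negative counterparts. Frontflip_GFAPCre (3) and Frontflip_GFAPCreNeg (3) carry the name of a further construct, which the labels do not describe. The Syn1Cre_SP1 groups are named for SP1, a transcription factor that binds GC-rich promoters, with P28 (4 mice) or P10 (3), taken to mean postnatal days 28 and 10. That construct is not described either, and in calling cards it is a transposase fused to the factor. For the other groups, the labels used here give no age at collection. Rbp4Cre_TRAP (4) came from whole forebrain and is named for a Cre line of deep-layer projection neurons and for TRAP, usually the purification of ribosome-bound RNA from chosen cells. BrokenHeart (3) was read from cortical DNA by inverse PCR, with a different, barcoded transposon. Cre lines can also be active outside the cell type they are named for, and GFAP-driven Cre is known to act in progenitors that also give rise to neurons.

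The tables differed in depth, from 2341 to 2186743 insertions per mouse. The Frontflip_GFAPCreNeg tables were the shallowest, with 2341 to 9601 insertions, and entered no comparison. The 24408 to 57014 insertions of the Rbp4Cre_TRAP tables and the 42511 to 98197 of the BrokenHeart tables limited those groups. Among the Syn1CreNeg mice, animals 1 to 3 had 97519 to 119059 insertions and animals 4 to 6 had 417832 to 556145, and the 2 sets also differed in the layout of their sample labels. Animals 1 to 3 of Syn1CreNeg shared sequencing pools with animals 1 to 3 of GFAPCre. No sequencing pool held both Syn1Cre and Syn1CreNeg mice, both Syn1Cre and GFAPCre mice, or both C57bl6J and GFAPCre mice. Group differences in these comparisons therefore cannot be told apart from differences between pools. In bulk tissue, a difference in IPM can come from the number of cells of a type or from the insertions per cell, and these cannot be told apart.

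Erbb4 lies on chromosome 1 at 68031884 to 69108576 (GRCm38), a body of 1076.69 kb. Its insertions were frequent in the Syn1Cre and C57bl6J cortices and in the SP1 mice of postnatal day 10, and scarcer in all other groups. The 6 Syn1Cre mice had 458.3 to 694.1 IPM, with a median of 549.1. The 2 C57bl6J mice had 494.8 and 529.1. Both groups lay above every Syn1CreNeg, GFAPCre and GFAPCreNeg mouse.

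The 6 Syn1CreNeg mice had 99.9 to 167.5 IPM in Erbb4 (median 155.1), the 6 GFAPCre mice 155.2 to 203.2 (median 175.1) and the 6 GFAPCreNeg mice 152.0 to 264.1 (median 199.8). The 3 groups overlapped one another. The Frontflip_GFAPCre mice had 180.0, 68.5 and 85.7, and the BrokenHeart mice 188.8, 254.6 and 141.1. The Rbp4Cre_TRAP mice had 87.7, 59.6, 149.8 and 81.9, each resting on only 2 to 6 insertions. The N2a table had 15 insertions or 18.6 IPM (95% exact Clopper-Pearson interval 10.4 to 30.7, counting error only).

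**Figure D1:**
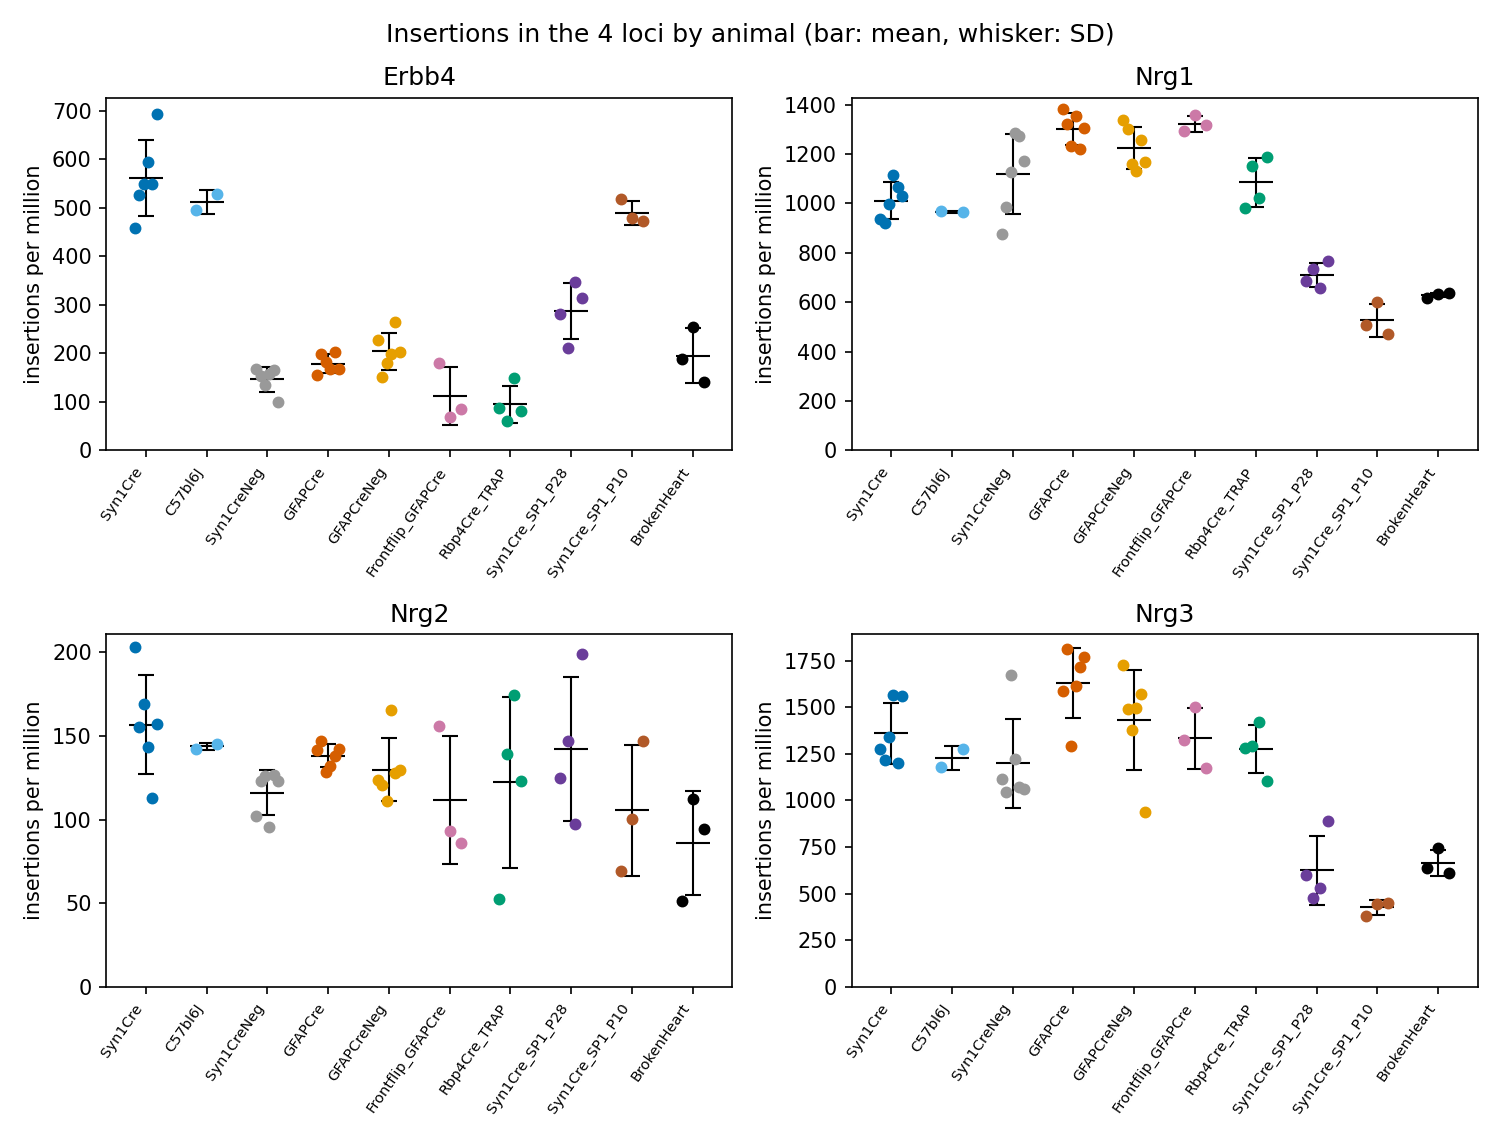
Levels in IPM (vertical axes, from 0) in the Erbb4, Nrg1, Nrg2 and Nrg3 loci, 1 point per mouse, with the group mean (bar) and SD (whisker). The Erbb4 points of the Syn1Cre and C57bl6J mice lie between 458.3 and 694.1, above all Syn1CreNeg, GFAPCre and GFAPCreNeg mice, while the points of the neuregulins overlap among most groups without SP1.

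By group means, Erbb4 ranked from Syn1Cre (562 ± 78.4 IPM, SD, n = 6) through C57bl6J (512 ± 24.2, n = 2) and Syn1Cre_SP1_P10 (490 ± 24.9, n = 3) to Syn1Cre_SP1_P28 (288 ± 57.8, n = 4). These first 3 differed by less than the larger SD of each neighbouring pair. Between Syn1Cre_SP1_P10 and Syn1Cre_SP1_P28 the ranges were separate, and in 24.2% of all loci these 2 groups did not overlap. From GFAPCreNeg (204 ± 38.7, n = 6) down to Rbp4Cre_TRAP (94.7 ± 38.6, n = 4), each group overlapped the next.

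In a quasi-likelihood fit with edgeR over all loci, Erbb4 was 3.04 times as high in Syn1Cre as in GFAPCre (log2 fold change 1.60, SE 0.11) and 3.86 times as high as in Syn1CreNeg (1.95, SE 0.14). With Syn1Cre animals 1 to 3 only, the difference from GFAPCre was 1.39 on the log2 scale. The Cre effect in the Syn1 cross was larger than that in the GFAP cross by 2.15 on the log2 scale (SE 0.18). In 1.84% of all loci the Syn1Cre and GFAPCre mice did not overlap, and in 6.95% the Syn1Cre and Syn1CreNeg mice did not. These 3 differences chose the gene and carry no test.

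The C57bl6J mice had no part in that choice, but the GFAPCre mice they are set against did, so this difference too is a description. Erbb4 was 3.05 times as high in C57bl6J (log2 fold change 1.61, SE 0.11), and both C57bl6J mice lay above all 6 GFAPCre mice. Of all loci tested there, 12.4% passed the threshold of an adjusted p of 0.05 (7.26% higher and 5.14% lower), 26.1% had an unadjusted p under 0.05, and in 22.3% the groups did not overlap.

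Between GFAPCre and GFAPCreNeg, Erbb4 differed by -0.18 on the log2 scale (SE 0.12, edgeR adjusted p = 0.364), with a 95% interval of -0.41 to 0.05. None of the 4 loci passed in this comparison, at an adjusted or an unadjusted p of 0.05, with edgeR, and none with DESeq2. Over all loci, 7.49% passed (2.18% higher and 5.3% lower), 22.9% had an unadjusted p under 0.05, and in 3.43% the groups did not overlap. Frontflip_GFAPCre differed from GFAPCre by -0.58 at Erbb4 (SE 0.21, adjusted p = 0.169, where 1.36% of loci passed, 1.05% higher and 0.304% lower), by -1.14 without Frontflip_GFAPCre animal 1 (adjusted p = 0.0176) and by -0.79 with distinct positions (0.0322). These p-values also rest on the GFAPCre mice that took part in the choice of Erbb4. In Rbp4Cre_TRAP, Erbb4 was lower than in Syn1Cre by 2.84 on the log2 scale (fold 0.140, SE 0.27), a description only, and the median of all loci there was -0.31.

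The summed level of the 12 interneuron markers was also high in the Syn1Cre and C57bl6J mice. It was 845 to 1039 IPM in Syn1Cre and 768 to 807 in C57bl6J. It was 140 to 359 in Syn1CreNeg, 158 to 233 in GFAPCre and 201 to 301 in GFAPCreNeg, and no marker was at 0 in these groups. In Syn1Cre against GFAPCre, 8 of the 12 passed the filter on low counts and 8 were called higher (1.26% of all loci were), while 4 passed the filter in GFAPCre against GFAPCreNeg. Which markers were tested depended on the groups compared, so the count is a description. In Rbp4Cre_TRAP the sum was 0 to 175, with 6 markers at 0 in all 4 mice. Excitatory neuron markers were also called higher in Syn1Cre, 2 of 8 tested against GFAPCre (1.26% of all loci) and 4 of 7 against Syn1CreNeg (13.8%). In C57bl6J against GFAPCre 4 of 8 were higher (7.26%), and in GFAPCre against GFAPCreNeg 3 of 7 (2.18%). In these 4 comparisons 0 were called lower, and DESeq2 called 2, 4, 3 and 1. Astrocyte markers fell in Syn1Cre against Syn1CreNeg (7 of 9 tested, 17.4% of all loci), with sums of 675 to 2270 against 2253 to 2959 IPM. DESeq2 called 5 there. They also fell in GFAPCre against GFAPCreNeg (3 of 10 tested, 5.3% of all loci), with sums of 865 to 1812 against 1594 to 3350 IPM. In Syn1Cre against GFAPCre, 0 of 10 tested were called (2.13% of all loci were). The part of cell composition in the level of Erbb4 was not tested.

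The position along Erbb4 was followed in 23 windows of 50 kb, from chr1:68000001-68050000 at the 3′ end to chr1:69100001-69150000, which holds the start site at 69108059 and reaches beyond the locus upstream. In Syn1Cre the highest windows were the 3 at the start of the gene. The window from 69050001 to 69100000 held 85.3 ± 13.5 IPM (SD, n = 6), that from 69000001 to 69050000 held 76.8 ± 13.3, and the start window held 68.9 ± 10.8. In the same 3 windows C57bl6J had 70.1 ± 3.06, 58.1 ± 6.53 and 49.5 ± 9.59 (n = 2), and GFAPCre had 18.4 ± 1.23, 21.5 ± 3.99 and 14.4 ± 4.28 (n = 6).

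The lowest windows of Syn1Cre lay inside the gene, with 4.70 ± 2.51 IPM from 68200001, 6.50 ± 3.13 from 68300001 and 7.06 ± 5.25 from 68550001. The window at the 3′ end, from 68000001, held 7.55 ± 1.64. The windows from 69000001 and 69050001 were also the highest in C57bl6J, GFAPCre, GFAPCreNeg and Syn1CreNeg, at lower levels.

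**Figure D2:**
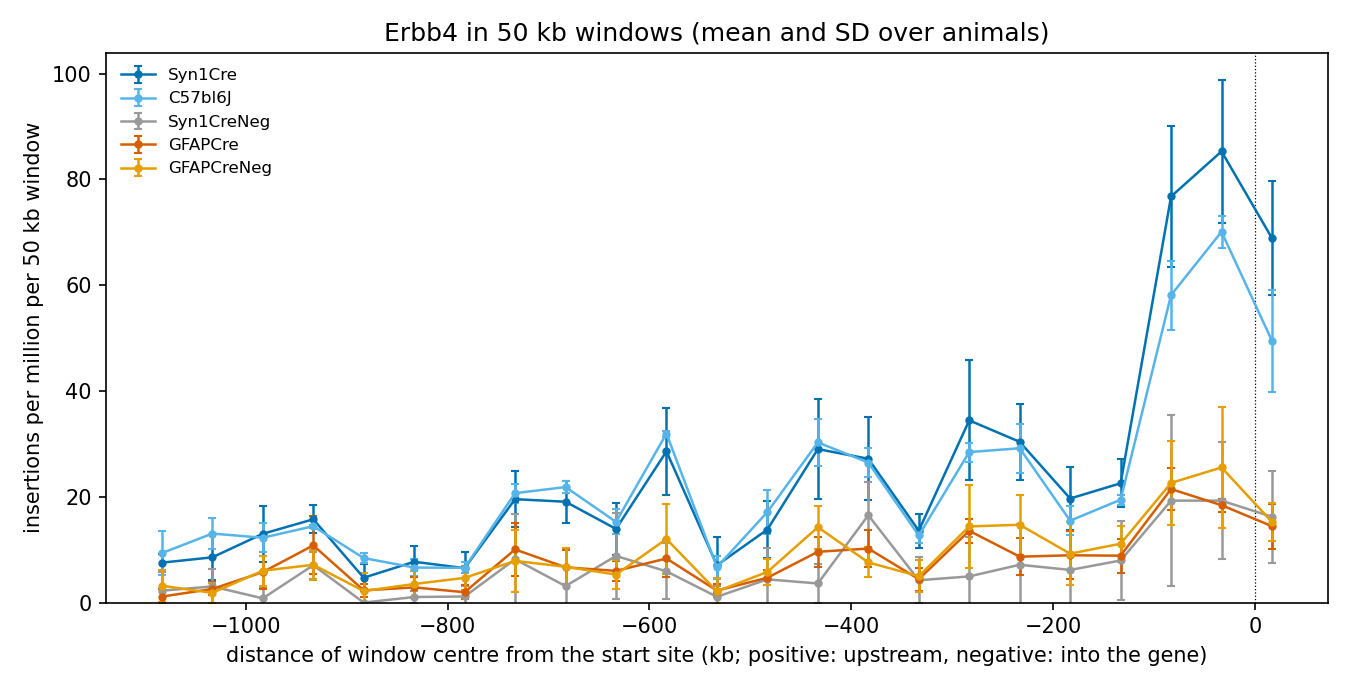
Erbb4 level in IPM in 23 windows of 50 kb (vertical axis) by the distance of the window centre from the start site in kb (horizontal axis, start site at 0, gene body to the left), as mean and SD over mice for 5 groups. The Syn1Cre and C57bl6J lines run above the other 3 along the gene, and all 5 are highest in the windows from 69000001 and 69050001, beside the start window.

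The higher level of Syn1Cre was spread along the gene. Its mean was above that of GFAPCre in 23 of 23 windows, by 1.46 to 6.67 times with a median of 2.94, and all 6 mice lay above all 6 GFAPCre mice in 12 windows. C57bl6J was above GFAPCre in 23 of 23 windows, with a median ratio of 2.96, and both its mice lay above all GFAPCre mice in 20. The share of all 50 kb windows without overlap is not given. Over all gene loci, Syn1Cre and GFAPCre did not overlap in 1.84%, and C57bl6J and GFAPCre did not in 22.3%. Against Syn1CreNeg, the Syn1Cre mean was higher in 23 of 23 windows, with a median ratio of 4.12 over the 22 windows where Syn1CreNeg had insertions.

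Only 13 of the 23 windows held enough insertions for the fit of Syn1Cre against GFAPCre. Among these the difference was largest at the start of Erbb4, at 2.21 (SE 0.16) for the window from 69050001 and 2.19 (SE 0.18) for the start window, and smallest at 0.65 (SE 0.28) for the window from 68150001. The largest ratio of means, 6.67, was in a window that was not fitted, at the 3′ end from 68000001. These window values are descriptions. For GFAPCre against GFAPCreNeg, only 2 of the 23 windows held enough insertions to be tested, and they differed by -0.11 (SE 0.24, edgeR adjusted p = 0.852) and -0.63 (SE 0.24, adjusted p = 0.111), where 6.2% of all windows passed.

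In the 5 kb from 69100001 to 69105000, just inside the start of Erbb4, Syn1Cre had 45.5 IPM on average, C57bl6J 30.6 and GFAPCre 6.05. At Erbb4, 3 positions were each hit in 19 mice, the most of any. The first, 69103825, had 43 insertions in the 6 Syn1Cre mice, 14 in the 2 C57bl6J mice and 4 in the GFAPCre mice. Another, 69105094, had 28, 13 and 7. The last, 68183283, lies near the 3′ end and had 15, 9 and 10. No insertion fell within the 1 kb downstream of the start site in any table.

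The 5 loci below had the pattern over groups most like that of Erbb4, by Pearson correlation of log2 group means over 10 groups among 4024 loci with at least 50 IPM. They were Cir1 (r = 0.94), a corepressor gene, Kcnc2 (0.93), the gene of a fast potassium channel of the Kv3 family, Nxph1 (0.92), a neurexophilin gene, Shisa6 (0.90), the gene of an AMPA receptor auxiliary protein, and 1700113H08Rik (0.90). Nxph1, for example, had 273 IPM in Syn1Cre, 225 in C57bl6J and 66.7 in GFAPCre. The neuregulins had r = -0.50 (Nrg1), 0.37 (Nrg2) and -0.36 (Nrg3) with Erbb4. The points share libraries, and these values are descriptions.

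Of the neuregulin genes, Nrg1 and Nrg3 did not follow Erbb4 over the groups. Nrg2, like Erbb4, had its highest group means in Syn1Cre and C57bl6J, but neighbouring groups overlapped and r with Erbb4 was 0.37. Nrg1 encodes the best-known neuregulin and lies on chromosome 8 at 31807452 to 32891609, a body of 1084.16 kb. The 6 Syn1Cre mice had 921 to 1117 IPM in Nrg1 (median 1013), and the 6 GFAPCre mice had 1219 to 1381 (median 1313). No Syn1Cre mouse reached the lowest GFAPCre mouse. Nrg1 was lower in Syn1Cre by 0.42 on the log2 scale (SE 0.09, edgeR adjusted p = 0.00698), where 2.13% of all loci passed and 0.874% were lower. The adjusted p was 2.68e-05 to 0.0293 over 7 other settings.

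The 2 C57bl6J mice had 969 and 964 IPM in Nrg1, again below all GFAPCre mice. Their difference from GFAPCre was -0.34 (SE 0.11, edgeR adjusted p = 0.0291), and it no longer passed without C57bl6J animal 1 (adjusted p = 0.286), C57bl6J animal 2 (0.214), GFAPCre animal 1 (0.0786) or GFAPCre animal 4 (0.0730), or with distinct positions (0.117). Both comparisons use the same GFAPCre mice. Syn1Cre and Syn1CreNeg overlapped at Nrg1 and differed by -0.18 (SE 0.11, adjusted p = 0.212, interval -0.40 to 0.03), where 31.2% of loci passed.

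Nrg3, a neuregulin gene expressed mainly in the nervous system that encodes a ligand of ERBB4, lies on chromosome 14 at 38365102 to 39473235, a body of 1108.13 kb. It held the most insertions of the 4 loci. GFAPCre had 1292 to 1813 IPM (median 1665), GFAPCreNeg 937 to 1726 (median 1494), Syn1Cre 1203 to 1567 (median 1309) and C57bl6J 1180 and 1274. These groups overlapped, apart from C57bl6J, both of whose mice lay below all GFAPCre mice in IPM. C57bl6J differed from GFAPCre by -0.32 at Nrg3 (SE 0.12, edgeR adjusted p = 0.0619). This passed with library totals (-0.41, adjusted p = 0.0104), without a filter on low counts (-0.36, 0.0221) and without GFAPCre animal 3 (-0.38, 0.00110). The difference was 0.15 at Nrg2 (SE 0.12, adjusted p = 0.455).

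At Nrg3, Syn1Cre differed from GFAPCre by -0.31 (SE 0.10, edgeR adjusted p = 0.0936). The difference passed with Syn1Cre animals 1 to 3 only (-0.48, adjusted p = 8.90e-04), without Syn1Cre animal 4 (-0.37, adjusted p = 0.0326) and without GFAPCre animal 3 (-0.38, adjusted p = 0.0222). Against Syn1CreNeg, Syn1Cre differed by 0.18 (SE 0.12, adjusted p = 0.250). Within the 2 sets of sample labels, this was -0.03 in animals 1 to 3 (adjusted p = 0.924) and 0.42 in animals 4 to 6 (adjusted p = 0.0167).

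Nrg2, a shorter neuregulin gene on chromosome 18 at 36014581 to 36197532 (182.952 kb), had 113 to 203 IPM in Syn1Cre (median 156) and 95.3 to 126.8 in Syn1CreNeg (median 123.1). The ranges overlapped in 1 Syn1Cre mouse. Nrg2 was higher in Syn1Cre by 0.42 (SE 0.14, edgeR adjusted p = 0.0181), where 13.8% of loci were higher. It did not pass within animals 1 to 3 (0.56, adjusted p = 0.128) or within animals 4 to 6 (0.36, adjusted p = 0.115), nor without Syn1CreNeg animal 4 (0.33, adjusted p = 0.113), with DESeq2 (adjusted p = 0.0512), without a filter on low counts (0.0527) or with distinct positions (0.0848). None of the 3 neuregulins passed in the test of the Syn1 Cre effect against the GFAP Cre effect, where 0.682% of loci passed. With edgeR, 0 of 3 had an unadjusted p under 0.05 (12.8% of all loci did), and DESeq2 called 0.

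Per length, the neuregulin loci were among the denser loci of the genome. In GFAPCre, Nrg3 had 145 and Nrg1 118 IPM per 100 kb, against a median of 29.6 over all protein-coding loci, and 95.2% and 92.6% of loci were below them. Nrg2 had 68.1 on this scale. Erbb4 had 16.3 in GFAPCre and 51.2 in Syn1Cre, where the median of all loci was 31.6.

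Insertions in Nrg1 recurred at the same places in very different samples. The densest 5 kb, from 32290001 to 32295000, was the same in Syn1Cre, GFAPCre, C57bl6J, both SP1 groups and N2a. It held 75.3 IPM in Syn1Cre, 94.7 in GFAPCre, 116 in Syn1Cre_SP1_P28 and 36.0 in N2a. A single position in it, 32292640, was hit in 43 of 46 mice and had 16 of the 279 N2a insertions of Nrg1. At Nrg3 the position hit in most mice, 38992431, was hit in 36.

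In the SP1 groups, the fitted level of each of the 4 loci was lower than in Syn1Cre mice. The largest difference was at Nrg3. The 4 Syn1Cre_SP1_P28 mice had 599, 477, 529 and 890 IPM in Nrg3, and the 3 Syn1Cre_SP1_P10 mice had 380, 446 and 451. All lay below the 1203 of the lowest Syn1Cre mouse. The SP1 and Syn1Cre mice did not overlap in 39.3% of all loci on day 28 and in 47.1% on day 10. The difference at Nrg3 was -1.57 (SE 0.17, edgeR adjusted p = 3.14e-10) on day 28 and -2.23 (SE 0.17, adjusted p = 1.42e-14) on day 10.

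At Nrg1 the level on day 28 was 0.501 times that of Syn1Cre (SE 0.14 on the log2 scale, edgeR adjusted p = 1.64e-07), and the log2 difference on day 10 was -1.50 (SE 0.16, adjusted p = 2.17e-10). At Nrg2 they were -0.53 (SE 0.18, adjusted p = 0.0102) and -1.11 (SE 0.25, adjusted p = 3.45e-04). Erbb4 was lower by 1.43 (SE 0.16) on day 28 and by 0.76 (SE 0.17) on day 10, as a description. Many loci differed in these comparisons, with 51.7% of all loci past the threshold on day 28 (25.7% lower and 26% higher) and 41.5% on day 10 (21.6% lower and 19.9% higher). At an unadjusted p under 0.05 these shares were 56.8% and 49.4%. Excitatory neuron markers differed in the same comparisons, with 6 of 8 called lower and 1 higher on day 28 (median -0.78) and 5 of 8 lower on day 10 (median -0.86). Their summed level was 1303 to 1454 IPM on day 28 and 1437 to 1582 on day 10, against 1985 to 2487 in Syn1Cre, and their part in the result was not tested. The age of the Syn1Cre mice is not given in the labels used here, and age and sequencing pool cannot be told apart from SP1.

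The scaling mattered here. With library totals in place of TMM factors, the median of all loci moved from -0.06 to 0.42 on day 28 and from -0.28 to 0.27 on day 10. Nrg3 then differed by -1.08 and -1.68 and Nrg1 by -0.50 and -0.94, all still past the threshold. Nrg2 no longer passed (-0.06, adjusted p = 0.799, and -0.57, adjusted p = 0.0920), and Erbb4 differed by -0.94 and -0.20. Nrg2 on day 28 also did not pass with distinct positions (adjusted p = 0.134), without flanks (0.447), or without Syn1Cre_SP1_P28 animal 1 (0.0614) or 3 (0.0769).

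**Figure D3:**
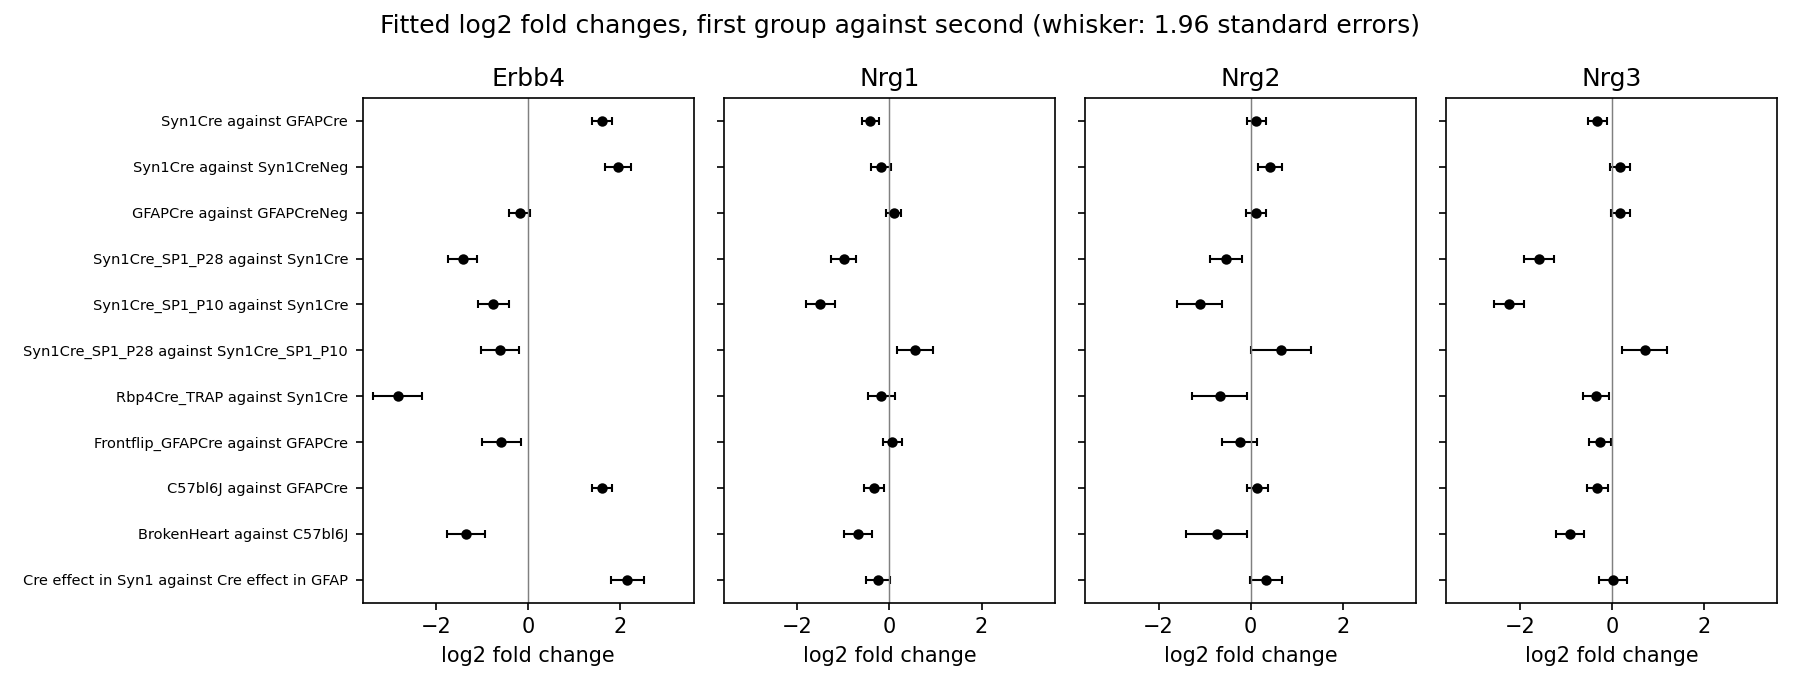
Fitted log2 fold changes (horizontal axes, first group minus second) of the 4 loci in 10 comparisons of groups and in the comparison of the Syn1 with the GFAP Cre effect, with whiskers for the 95% confidence interval. Erbb4 stands at 1.60 and 1.95 in the first 2 rows, where the neuregulins lie between -0.42 and 0.42, and all 4 genes lie below 0 for SP1 against Syn1Cre.

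Between the 2 ages of the SP1 mice, none of the 4 loci passed with edgeR. Erbb4 had 280, 211, 346 and 313 IPM on day 28 and 518, 479 and 472 on day 10, with no overlap. The 2 ages also did not overlap at Nrg1 and Nrg3, nor in 24.2% of all loci. The difference at Erbb4 was -0.62 (SE 0.21, edgeR adjusted p = 0.0567). It passed with DESeq2 (adjusted p = 0.0466), with library totals (0.0250), without flanks (0.0153) and without Syn1Cre_SP1_P28 animal 4 (0.00458). Nrg3 differed by 0.72 (SE 0.25, adjusted p = 0.0611; 0.0256 without Syn1Cre_SP1_P28 animal 2 and 0.0460 without animal 3), Nrg1 by 0.55 (SE 0.20, adjusted p = 0.0719) and Nrg2 by 0.65 (SE 0.33, adjusted p = 0.204). With edgeR 0 of the 4 passed, and 11.1% of all loci did (7.37% higher and 3.73% lower). An unadjusted p under 0.05 was found at 3 of the 4 and at 28.1% of all loci. DESeq2 called 1 of the 4.

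Erbb4 made up 31.7 ± 3.01% of the insertions of the 4 loci on day 10 (SD, n = 3) and 16.4 ± 3.48% on day 28 (n = 4), against 18.1 ± 1.43% in Syn1Cre (n = 6) and 5.53 ± 0.681% in GFAPCre (n = 6). The summed level of the interneuron list was 1854 to 2434 IPM on day 10, 1198 to 1735 on day 28 and 845 to 1039 in Syn1Cre, and the part of cell composition was not tested.

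Within Erbb4, a larger share of the insertions of the SP1 mice lay in the 50 kb window at the start. Of the insertions in the 23 windows, the start window held 22.7, 25.0, 25.9 and 17.9% in the 4 Syn1Cre_SP1_P28 mice. It held 15.6, 23.3 and 28.3% in the 3 Syn1Cre_SP1_P10 mice and 11.2 to 14.9% in the 6 Syn1Cre mice. All 7 SP1 mice lay above all 6 Syn1Cre mice. The same share was not taken at other genes, so it is not shown to be particular to Erbb4. Over the 4 windows nearest the start the groups overlapped, with 39.1 to 54.2% on day 28 and 37.8 to 58.7% on day 10, against 37.8 to 48.3% in Syn1Cre. In the start window Syn1Cre_SP1_P28 had 67.0 ± 16.6 IPM and Syn1Cre_SP1_P10 had 110 ± 27.9, against 68.9 ± 10.8 in Syn1Cre.

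**Figure D4:**
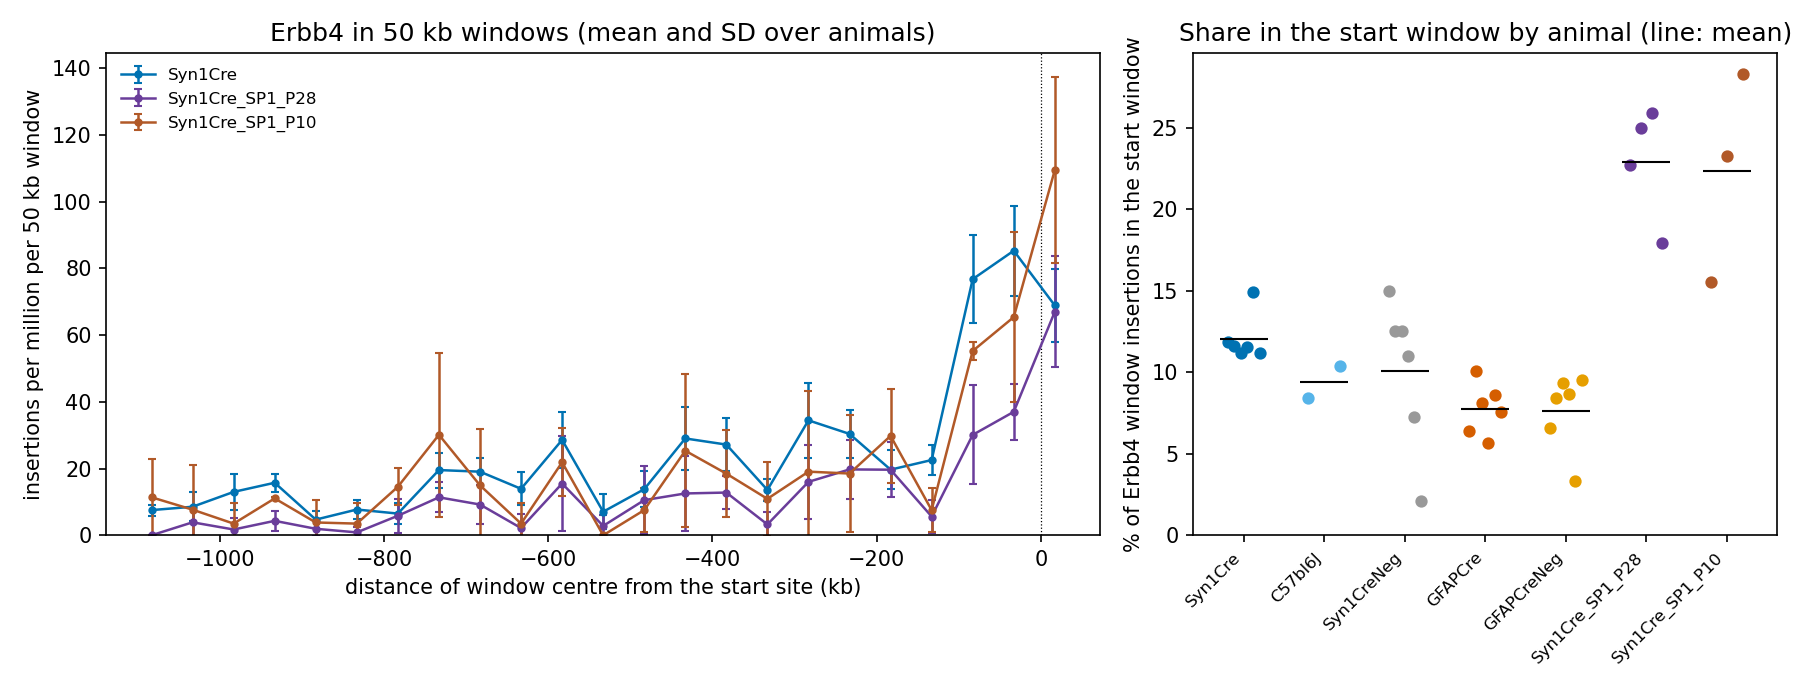
Left, Erbb4 level in IPM in windows of 50 kb by distance from the start site in kb, as mean and SD over mice, for Syn1Cre and the 2 SP1 groups. Right, the percentage of the Erbb4 window insertions of each mouse that lay in the start window, with the group mean as a line; the 7 SP1 mice lie between 15.6 and 28.3%, above the 6 Syn1Cre mice at 11.2 to 14.9%.

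A single position contributed to the start window. Position 69108367 lies 308 bases upstream of the start site used here, that of the RefSeq promoter table. It is still inside the RefSeq body of the gene, which reaches to 69108576. This position had 16 insertions in the 4 Syn1Cre_SP1_P28 mice (2 to 6 each) and 7 in the 3 Syn1Cre_SP1_P10 mice (2 to 3 each). It had 3 in the 6 Syn1Cre mice, 2 in Syn1CreNeg, 1 in GFAPCre, 1 in GFAPCreNeg and 0 in C57bl6J, although these groups had far more insertions in all. This made 14.8 and 25.7 IPM over the SP1 group totals against 0.538 in Syn1Cre. All 30 insertions at the position were on the + strand. The position was picked as the one with the most SP1 insertions in Erbb4, so the counts are a description.

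The 250 bases before the start sites of Erbb4 and Nrg3 are shown because the recurrent SP1 position lies just upstream of the first, and Nrg3 had the largest difference with SP1. They are RefSeq sequences (GRCm38.p6) on the minus strand, read 5′ to 3′, from chr1:69108060-69108309 for Erbb4 and from chr14:39473089-39473338 for Nrg3. Capitals mark the letters GGCGGG or their reverse complement CCCGCC. The search covered both strands. The Erbb4 stretch lies inside the RefSeq body of the gene, which reaches to 69108576. The Nrg3 stretch lies partly inside its body, which reaches to 39473235.
Erbb4: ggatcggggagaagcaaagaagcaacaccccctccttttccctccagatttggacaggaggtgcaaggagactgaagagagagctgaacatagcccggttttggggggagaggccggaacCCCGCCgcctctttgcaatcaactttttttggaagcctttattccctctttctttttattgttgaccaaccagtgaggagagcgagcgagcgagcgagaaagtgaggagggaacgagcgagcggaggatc
Nrg3: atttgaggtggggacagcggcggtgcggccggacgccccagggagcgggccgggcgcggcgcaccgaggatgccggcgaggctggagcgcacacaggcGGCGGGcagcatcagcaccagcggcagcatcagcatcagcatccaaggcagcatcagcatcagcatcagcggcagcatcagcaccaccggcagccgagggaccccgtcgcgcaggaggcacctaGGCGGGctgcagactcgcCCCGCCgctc

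The Erbb4 window of 300 bases (250 before and 50 after the start) held 1 match and the Nrg3 window 3, and 35.3% of the 32851 promoters in the RefSeq table held at least 1. Neither window held the GC box core GGGCGG or its reverse complement CCGCCC, which 35.7% of promoters held. Nor did either window hold TTAA, which 52.4% of promoters held. The transposon inserts at TTAA, and 0 insertions fell in either window in any table.

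Other genes of ErbB signalling were followed as a list of 39. In Syn1Cre against GFAPCre, 0 of 32 tested passed with edgeR, 3 had an unadjusted p under 0.05 (17% of all loci did) and DESeq2 called 0. The median of the list was 0.01, and that of all loci -0.00215. Egfr, the receptor of EGF and a gene of glial progenitors, was lower in Syn1Cre than in Syn1CreNeg (log2 fold change -1.30, SE 0.32, edgeR adjusted p = 0.00985) and lower in GFAPCre than in GFAPCreNeg (-1.07, SE 0.29, adjusted p = 0.0461). It had 128 ± 65.7 IPM in Syn1Cre and 284 ± 75.1 in Syn1CreNeg (SD, n = 6 each). Lrig1, a negative regulator of ErbB receptors, and Tab2, an adaptor, were the other 2 of the list that fell in Syn1Cre against Syn1CreNeg (-1.58 and -0.58, adjusted p = 0.00396 and 0.0192), with none higher among 29 tested. Of all loci, 17.4% were lower and 13.8% higher there, so 3 of 29 is below the background. Tab2 did not pass with DESeq2 (adjusted p = 0.0695). Adam19, a metalloprotease gene, was higher in GFAPCre than in GFAPCreNeg (0.77, edgeR adjusted p = 0.0126), but not with DESeq2 (0.0510).

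With SP1, the list moved in both directions, with 6 genes higher and 8 lower of 33 tested on day 28, and 6 higher and 9 lower on day 10. Of all loci, 26% were higher and 25.7% lower on day 28, and 19.9% and 21.6% on day 10. The shares of the list were below these, apart from the lower genes on day 10, whose share was somewhat above. The counts are not a result about the list. The list's medians were -0.16 and -0.19, and those of all loci -0.06 and -0.28. The receptor gene Erbb3 rose by 2.01 (SE 0.34, edgeR adjusted p = 4.19e-06) on day 28 and 2.15 (SE 0.56, adjusted p = 0.00178) on day 10, from 6.96 ± 3.85 IPM in Syn1Cre to 40.9 ± 11.3 and 48.4 ± 19.1. The phosphatase gene Ptpn11 and the adaptor gene Shc1 rose on both days, by 2.10 and 1.69 on day 28. So did Psen2, a component of gamma-secretase, at 1.67, with Dlg4 at 1.19 and Rnf41, a ubiquitin ligase gene that acts on ERBB3, at 0.95. Among the genes that fell on both days were the scaffold gene Magi2 (-1.18 on day 28) and the PI3 kinase subunit genes Pik3r1 (-0.50) and Pik3r3 (-0.70), with Yap1, Itch and Errfi1 at -0.73, -0.69 and -0.94. With DESeq2 instead of edgeR, Itch did not pass on either day (adjusted p = 0.103 and 0.0746), nor Errfi1 on day 10 (0.120) or Pik3ca on day 10 (0.0897). Nedd4 fell on day 28 (-0.77), and Pik3ca (-0.97) and Ncor1 (-0.84) on day 10.

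Erbb2 and Nrg4 were sparse in all groups and passed in no comparison with edgeR or DESeq2. Syn1Cre had 14.6 ± 3.64 IPM in Erbb2 and 14.8 ± 3.71 in Nrg4 (SD, n = 6 each). Between the SP1 ages, Egfr and Magi2 were higher on day 28 (1.16 and 0.78, adjusted p = 0.0443 and 0.0158) and Ptpn11 was lower (-0.72, adjusted p = 0.0390). With DESeq2, Magi2 passed, Ptpn11 did not (adjusted p = 0.0807) and Egfr had no adjusted p. In C57bl6J against GFAPCre, Tgfa and Erbin were higher (0.84 and 0.51) and Itch lower (-0.71), and with DESeq2 only Tgfa passed (adjusted p = 0.00457, against 0.272 and 0.151).

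The DNA-read BrokenHeart mice had fewer insertions than the RNA-read C57bl6J mice at each of the 4 loci. The differences were -1.35 at Erbb4 (SE 0.21, edgeR adjusted p = 9.48e-07), -0.91 at Nrg3 (SE 0.16, adjusted p = 5.85e-06), -0.68 at Nrg1 (SE 0.16, adjusted p = 4.84e-04) and -0.73 at Nrg2 (SE 0.34, adjusted p = 0.0735). Nrg2 passed without a filter on low counts (-1.24, adjusted p = 0.00908) and without BrokenHeart animal 2 (-1.56, 0.0203). Of all loci, 40.4% passed (21.1% lower and 19.3% higher), 49.4% had an unadjusted p under 0.05, and in 56.6% the groups did not overlap. BrokenHeart had 18 to 136 insertions per locus over its 3 mice. The rise at the start of Erbb4 was not seen, with 4 of 42 window insertions in the 4 windows nearest the start, against 739 of 1967 in C57bl6J. Of the list, Nedd4 and Lrig1 were higher (1.43 and 1.39) and Magi2 lower (-0.36) in BrokenHeart, and Nedd4 did not pass with DESeq2 (adjusted p = 0.142). The read-out (RNA or DNA) and the reporter cannot be told apart here.

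In the other RNA-read comparisons the neuregulins did not pass in the edgeR fit with its filter. Rbp4Cre_TRAP had 982 to 1188 IPM in Nrg1 and 1106 to 1423 in Nrg3, and differed from Syn1Cre by -0.17 (SE 0.15, edgeR adjusted p = 0.628) and -0.34 (SE 0.15, adjusted p = 0.213), where 2.75% of loci passed and 2.48% were lower. Nrg3 passed there without a filter on low counts (-0.55, adjusted p = 0.00817). With edgeR 0 of 3 neuregulins were called, 2 had an unadjusted p under 0.05 (15.1% of all loci did) and DESeq2 called 0. In Frontflip_GFAPCre against GFAPCre, Nrg1 differed by 0.06 (SE 0.11, adjusted p = 0.870) and Nrg3 by -0.25 (SE 0.12, adjusted p = 0.335).

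The strand of the insertions was uneven at Nrg2 and Nrg3. In Syn1Cre, 30.1 ± 3.28% of Nrg2 and 34.6 ± 1.09% of Nrg3 insertions were on the + strand, against 46.8 ± 1.56% at Nrg1 and 38.5 ± 2.02% at Erbb4 (SD, n = 6). Erbb4 and Nrg3 are transcribed from the minus strand by the RefSeq table. In BrokenHeart the + strand shares were 59.1 ± 6.62% at Erbb4 and 44.1 ± 5.18% at Nrg3 (n = 3). At Erbb4 the share in Syn1Cre was lower than in GFAPCre (45.5 ± 3.26%) by 6.93 percentage points, with no overlap between 6 and 6 mice. This contrast chose Erbb4, so the difference is a description. Of 24 exact two-sided permutation tests of strand share and reads per insertion, which include Erbb4 in that contrast, 0 passed after adjustment and 9 had an unadjusted p under 0.05. The smallest p possible with 6 against 6 mice was 0.00216. A single permutation test at that value has an adjusted p of 0.0519 over the 24 tests and cannot pass alone. That 0 passed is therefore no evidence of equal shares. With distinct positions and mean log2 reads 6 passed, and without flanks 3, the strand share of Erbb4 in Syn1Cre against GFAPCre and that of Nrg1 in GFAPCre against GFAPCreNeg among both. Median reads per insertion at Erbb4, relative to the table's median, were -0.60 ± 0.403 on the log2 scale in Syn1Cre and -0.27 ± 0.272 in GFAPCre.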

How the data were processed

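The authors deposited 1 table of insertions per mouse, with 1 row for each insertion and its read count, per the labels and the file contents; Novoalign, Bowtie2 and the build mm10 are named in the submitters' processing notes, and versions are not given in the sources used here. Rows were counted as insertions, so a position read in several parts of a cortex counts more than once. In 14328 of 14328 positions inside RefSeq promoter windows the site read TTAA at GRCm38 coordinates after a shift of 1. BrokenHeart tables were shifted by -1.

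Counts in 21631 protein-coding loci (RefSeq bodies with 10 kb flanks) and in windows of 50 kb were tested with edgeR 4.0.16 (quasi-likelihood test, TMM, filterByExpr, only the groups compared), Benjamini-Hochberg adjusted over all loci tested, with a threshold of 0.05. DESeq2 1.42.0 was an alternative, with total scaling, no filter, distinct positions, bodies without flanks, the replicate block and leaving out each mouse. The replicate block kept only mice whose number occurred in both groups. Intervals are 95% normal intervals. The fits were tested on simulated data with 200 loci changed 3-fold. Of these, 96.5% were recovered for Syn1Cre against GFAPCre, 92% and 49% for SP1 on days 28 and 10 against Syn1Cre, 23.5% for Rbp4Cre_TRAP against Syn1Cre and 17.5% for BrokenHeart against C57bl6J. False calls were 7.21% of calls for Syn1Cre against GFAPCre, 19.0% for Rbp4Cre_TRAP and 4.66% or less elsewhere. The simulation set a fixed spread between mice and changed only loci above a minimum mean count, so these rates need not hold in the data. Strand and reads were compared by exact permutation over mice. The replicates are taken as separate mice from their labels. The members and lists were chosen with earlier results of these data known. Named were the 4 members, Egfr, Erbb2, Erbb3, Nrg4, any other list gene past the threshold (except 1 that is not reported here), the 5 loci most like Erbb4, and in Syn1Cre the 3 highest and 3 lowest windows with both end windows.

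The Nrg1, Nrg2 and Nrg3 loci each overlap 1 other protein-coding locus (Gm3985, Psd2 and Gm31606), whose insertions cannot be told apart there. Same-numbered mice were not from a shared animal, and not every pair correlated above 0.1 in any comparison, so numbers were not taken to pair mice.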

Additional observations from a re-analysis of the deposited data

Results flagged for a closer look

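At Nrg2, GFAPCreNeg animal 4 had 165.5 insertions per 1000000 insertions of its table (IPM), and its gap to the next mouse was 0.655 of the range of the 6 mice, above Dixon's 95% critical value. At Nrg3, Syn1CreNeg animal 3, one of the shallow tables, had 1671 IPM, with a gap of 0.717 of the range. These were 2 of 24 groups of 4 or 6 mice examined, and chance flags about 1 in 20 groups.

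The N2a table enters no comparison, and it held more insertions than the 3 that a count of 0 would allow at each locus: 15 at Erbb4, 279 at Nrg1, 6 at Nrg2 and 19 at Nrg3. These were 18.6, 346, 7.44 and 23.6 IPM. The Frontflip_GFAPCreNeg tables, also in no comparison, together held 5 insertions at Erbb4, 28 at Nrg1 and 13 at Nrg3. In 2 of these 3 mice Erbb4 had 0 insertions, which allows up to 1282 and 530 IPM.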

How the results depend on the processing

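Of 330 single values under other settings, some of which held only part of the mice, 285 kept direction and side of the threshold. Another 22 came to pass it, 10 ceased to, 5 descriptive values moved and 8 reversed. The cause of each change was not tested. The reversals were Nrg3 in Syn1Cre against Syn1CreNeg for animals 1 to 3 (-0.0295), Nrg1 in Rbp4Cre_TRAP against Syn1Cre with total scaling (0.0912) and the replicate block (0.0273), and Nrg1 in Frontflip_GFAPCre against GFAPCre without a low-count filter (-0.00175) and with distinct positions (-0.0274). The others were reads per insertion by mean log2 over distinct positions (Erbb4, Syn1Cre against GFAPCre, 0.0159; Nrg1, GFAPCre against GFAPCreNeg, -0.0140) and the strand share of Nrg3 without flanks in Syn1Cre against Syn1CreNeg (-0.0145 percentage points). None of these values had passed the test.

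Counts of loci past the threshold moved by over 1.5 times as follows. Syn1Cre against GFAPCre gave 246 loci, and 1633 with Syn1Cre animals 1 to 3. Syn1Cre against Syn1CreNeg gave 2684, and 970 with animals 1 to 3. GFAPCre against GFAPCreNeg gave 689, and 51 over shared pools with the pool set as a block. Without flanks, SP1 against Syn1Cre gave 2821 in place of 6234 on day 28 and 2401 in place of 5339 on day 10. Day 28 against day 10 gave 384, and 171 with DESeq2, 248 with distinct positions and 199 without flanks. Rbp4Cre_TRAP gave 294, and 194 with total scaling, 735 without a filter, 575 with distinct positions, 163 without flanks and 123 with the replicate block. Frontflip_GFAPCre gave 143, and 304 without a filter, 276 with distinct positions, 67 without flanks and 304 with the replicate block. C57bl6J against GFAPCre gave 1643, and 707 with DESeq2 and 1074 with distinct positions. BrokenHeart gave 759, and 1187 without a filter. Of the 24 tests of strand and reads 0 passed, and 6 with distinct positions and mean log2 reads and 3 without flanks.

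The share of higher calls moved with another scaling, or with DESeq2, which also changes the model and the loci tested. It moved from 29.2 to 11.4% (DESeq2; 26.7% with total scaling alone) in GFAPCre against GFAPCreNeg, 58.6 to 34.4% (total) or 44.3% (DESeq2) in C57bl6J, and 9.86 to 41.8% (total) or 28.1% (DESeq2) in Rbp4Cre_TRAP. With total scaling it moved from 50.3 to 79.8% for SP1 on day 28, 48.0 to 75.5% on day 10, 66.4 to 44.5% between the ages, 77.6 to 63.1% in Frontflip_GFAPCre and 14.5 to 25.7% in the windows of the GFAP comparison.

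Without each mouse in turn, counts ranged from 156 to 777 (Syn1Cre against GFAPCre), 345 to 1095 (GFAPCre against GFAPCreNeg), 547 to 1706 (its windows), 7 to 550 (SP1 ages), 132 to 462 (Rbp4Cre_TRAP), 13 to 370 (Frontflip_GFAPCre), 435 to 2102 (C57bl6J), 346 to 893 (BrokenHeart), 44 to 292 (Syn1 against GFAP Cre effect) and 0 to 5 (strand and reads). Values that changed sign ranged from -0.0418 to 0.119 (Nrg3, Syn1 against GFAP Cre effect), -0.0231 to 0.0680 (reads, Nrg1, GFAPCre against GFAPCreNeg), -0.103 to 0.0416 and -0.136 to 0.378 (reads, Nrg2, Syn1Cre against GFAPCre and Syn1CreNeg) and -2.004 to 1.370 percentage points (strand, Nrg3, Syn1Cre against Syn1CreNeg).

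Replicate numbers did not pair mice: same-numbered correlations ran from -0.01 to 0.16 in Syn1Cre against Syn1CreNeg, with 3 of 6 pairs over 0.1. The replicate block kept only numbers found in both groups, so it dropped Syn1Cre_SP1_P28 animal 4 and GFAPCre animals 3 to 6. This left 3 numbers between the SP1 ages and 2 in C57bl6J against GFAPCre. With this block, Erbb4 between the SP1 ages was -0.72 (edgeR adjusted p = 7.89e-04) and Nrg1 there 0.46 (adjusted p = 0.0490). Nrg3 in C57bl6J against GFAPCre was -0.37 (adjusted p = 0.00106). As the numbers do not pair mice, these fits do not rest on true pairs. Depth limited Rbp4Cre_TRAP and BrokenHeart most.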
